A study of Mus musculus with 24 samples.

Results

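The serine synthesis pathway of the liver consists of 3 enzymes, Phgdh, Psat1 and Psph, and these 3 genes were taken by name from a table of 15161 genes. Their mRNA was followed in the livers of mice fed diets low in methionine. All animals were male C57BL6/J mice aged 4 months, and 24 libraries of total liver RNA fall into 4 groups of 6. Casein MR (methionine restriction) is a diet of oxidized casein with 0.17% methionine, and casein control is a casein diet with 0.86% methionine. Elemental MR is a diet of free amino acids with 0.17% methionine, and elemental control is a diet of free amino acids with 0.86% methionine. The sample labels call only the casein of the MR diet oxidized, while the series text speaks of oxidized casein for both, so restriction and a change in the protein cannot be told apart within the casein diets. The labels do not say that each library came from a separate mouse, so p-values speak only of the spread among these libraries, which may be technical. Libraries are named here by group and by the last word of their label.

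Cells make serine from 3-phosphoglycerate, an intermediate of glycolysis. Phgdh (phosphoglycerate dehydrogenase) oxidises it, Psat1 (phosphoserine aminotransferase) adds an amino group taken from glutamate, and Psph (phosphoserine phosphatase) removes the phosphate and releases serine. Serine in turn supplies glycine, one-carbon units for folate, the carbon skeleton of cysteine by way of transsulfuration, sphingolipids and phosphatidylserine. In rat liver the pathway is known to be low on protein-rich diets and induced on protein-poor ones. Transcription of the enzymes is known to be raised by ATF4, a factor made when amino acids are scarce.

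The region before each gene's start is shown first because the 3 enzymes moved in 1 direction with MR. All 3 had an entry in the RefSeq promoter table (build GRCm38.p6), and the 250 bases before the start were searched on both strands for 5 short motifs. The capitals in Phgdh mark 2 CCAAT boxes, at 193 and 23 bases before the start, and the reverse-strand core of an antioxidant response element at 53 bases. The Psat1 line is the first of 2 listed starts, and its capitals mark CCAAT boxes at 36 and 6 bases. For Psph the whole window lies in exons of the neighbouring gene Cct6a, so the line holds only 30 bases around the nearer of 2 reverse-strand CCAAT boxes, at 48 bases. The 196 bases nearest the start also lie in annotated exons of Psph itself, and both CCAAT boxes stand there. Only the CCAAT box is in capitals in the Psph line. A reverse-strand GC box (GGGCGG) at 58 bases lies in that line in small letters. In the Phgdh window the 21 bases nearest the start lie in Phgdh exons.
Phgdh, chr3:98339970-98340219, minus strand: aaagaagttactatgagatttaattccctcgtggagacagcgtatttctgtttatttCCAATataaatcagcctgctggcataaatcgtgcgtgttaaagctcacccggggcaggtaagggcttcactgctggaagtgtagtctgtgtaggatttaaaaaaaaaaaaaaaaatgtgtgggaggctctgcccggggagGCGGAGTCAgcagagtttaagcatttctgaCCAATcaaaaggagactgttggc
Psat1, chr19:15925060-15925309, minus strand: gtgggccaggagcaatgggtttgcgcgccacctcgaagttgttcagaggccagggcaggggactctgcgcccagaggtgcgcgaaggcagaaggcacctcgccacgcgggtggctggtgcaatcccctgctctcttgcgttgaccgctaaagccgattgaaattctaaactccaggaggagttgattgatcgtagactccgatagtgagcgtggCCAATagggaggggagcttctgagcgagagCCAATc
Psph, chr5:129787284-129787313, minus strand: tgccgcccgctgATTGGcttaatccaacgc
CCAAT, the core of the CCAAT box, was thus found before all 3 genes, though not before the second start of Psat1. It stands in 33.8% of 32536 such windows. TGACNNNGC, the core of the antioxidant response element, was found before Phgdh only, and 10.2% of windows hold it. TGATGNAA, the core of the amino acid response element, was in none of the 3 windows and in 3.40% of all. GGGCGG, the GC box, was found 3 times before Psph and once before the second start of Psat1, and 33.0% of windows hold it. TGACG, the half-site of the cyclic AMP response element, was in none of the 3 windows and in 17.9% of all. These matches describe letters and not bound sites.

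Library totals ran from 13458941 to 20762532 reads. All 10 hepatocyte markers were detected, and their summed level was 74552 to 82179 CPM (read counts scaled to a fixed library size) in casein MR, against 112646 to 129641 CPM in casein control. It was 97888 to 107023 CPM in elemental MR, against 121867 to 132891 CPM in elemental control. Of these 10 markers, edgeR called 9 lower with casein MR and 2 with elemental MR, against 12.7% and 6.64% of all genes. Of 7 cholangiocyte markers, 4 were called lower and 1 higher with casein MR, and 1 lower with elemental MR. Of 10 stellate cell and fibroblast markers, 1 was called higher with casein MR and 2 lower with elemental MR. The 10 Kupffer cell and macrophage markers included none called in either MR comparison by edgeR or DESeq2, and 1 had an unadjusted p under 0.05 with casein MR. Casein MR library C_MR_3438 stood apart with 2135 CPM of 10 skeletal muscle markers, 9 of which edgeR called higher with casein MR and 1 of which DESeq2 did, and elemental control library E_C_3430 with 1737 CPM of 7 pancreas acinar markers. In bulk tissue, fewer cells of a type and less RNA per cell cannot be told apart.

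MR raised the mRNA of all 3 enzymes on both protein sources, most for Phgdh and Psat1 and least for Psph. On casein the fold changes were 21.0 for Phgdh, 36.6 for Psat1 and 2.74 for Psph. On elemental amino acids they were 20.8 for Phgdh, 15.8 for Psat1 and 2.23 for Psph. In each diet the libraries of MR and control did not overlap for any of the 3. The share of all genes without such overlap was not counted. Each of these 6 changes passed edgeR's quasi-likelihood test at a Benjamini-Hochberg adjusted p under 0.05 over 13441 genes. That threshold called 10.6% of genes higher in casein MR and 6.78% higher in elemental MR. All 3 enzymes passed the filter on low counts, Phgdh only through the MR groups, so that it had to differ to be tested.

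**Figure D1:**
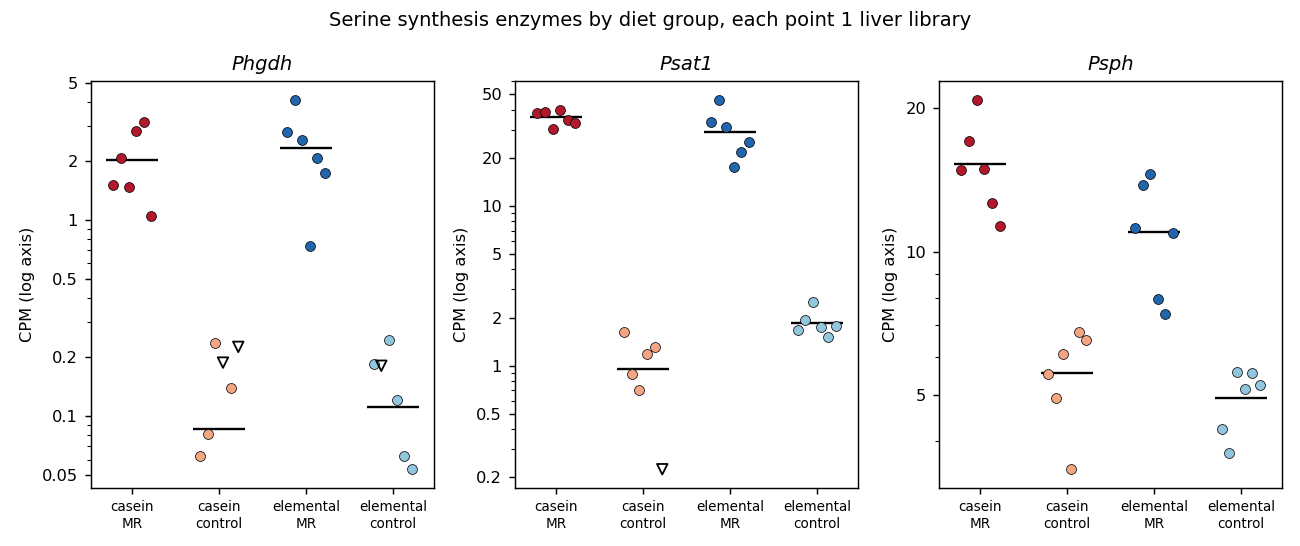
CPM of Phgdh, Psat1 and Psph on log axes in the 4 diet groups, with 1 point per library and a line at the group mean. Open triangles mark libraries at 0 counts, drawn at the level of 3 counts. Every MR library lies above every control library of the same protein source, and Phgdh in the controls lies near the limit of counting.

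Phgdh, which commits 3-phosphoglycerate to serine, was almost undetected on the control diets. In casein MR its lowest, median and highest levels were 1.05, 1.79 and 3.16 CPM, against 0, 0.0716 and 0.235 CPM in casein control. In elemental MR they were 0.733, 2.31 and 4.11 CPM, against 0, 0.0918 and 0.244 CPM in elemental control. The groups did not overlap within either protein source, and Phgdh was the least abundant of the 3 mRNAs per length of exon in every MR library. The 6 casein MR libraries held 235 Phgdh reads together, against 8 in casein control, where 2 libraries had 0. The 6 elemental MR libraries also held 235 reads, against 10 in elemental control, where 1 library had 0. A count of 0 allows up to 0.225 CPM in casein control library C_C_3437, 0.187 CPM in casein control library C_C_3429 and 0.18 CPM in elemental control library E_C_3417, by a limit of 3 counts that covers counting error only. The log2 fold change was 4.39 ± 0.71 on casein (SE, 95% interval 2.93 to 5.85, edgeR adjusted p = 5.41e-07). It was 4.38 ± 0.65 on elemental amino acids (95% interval 3.04 to 5.72, edgeR adjusted p = 1.16e-06). The wide intervals go with few reads in the controls. Both p-values belong to a gene that passed the filter only through the MR groups and had to differ to be tested.

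Psat1, the glutamate-using step, had the most abundant of the 3 mRNAs per length of exon on MR and the change with the smallest p of the 3 on each protein source. Its lowest, median and highest levels were 30.3, 36.3 and 39.7 CPM in casein MR, against 0, 1.04 and 1.62 CPM in casein control. They were 17.4, 28.0 and 46.2 CPM in elemental MR, against 1.5, 1.76 and 2.52 CPM in elemental control. Casein MR libraries lay close together, with a coefficient of variation of 10.3%, while elemental MR libraries spread more widely, at 35.1%. Casein control library C_C_3437 had no Psat1 read at all, while its Psph level of 6.53 CPM lay within its group. The log2 fold change was 5.19 ± 0.31 on casein (SE, 95% interval 4.55 to 5.84, edgeR adjusted p = 3.46e-13). It was 3.98 ± 0.26 on elemental amino acids (95% interval 3.45 to 4.51, edgeR adjusted p = 3.26e-11). Among 13441 genes Psat1 had the 5th smallest p with casein MR and the 2nd smallest with elemental MR. Without casein control library C_C_3437, the casein value was 4.96.

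Psph, the last step, was expressed on every diet and changed by a smaller factor. Its lowest, median and highest levels were 11.3, 14.9 and 20.9 CPM in casein MR, against 3.49, 5.82 and 6.77 CPM in casein control. They were 7.39, 11.1 and 14.6 CPM in elemental MR, against 3.79, 5.19 and 5.60 CPM in elemental control. The groups again did not overlap within a protein source. The log2 fold change was 1.46 ± 0.18 on casein (SE, 95% interval 1.10 to 1.82, edgeR adjusted p = 4.59e-07). It was 1.15 ± 0.18 on elemental amino acids (95% interval 0.79 to 1.52, edgeR adjusted p = 5.86e-05). Of the 4329 exon bases of Psph, 452 (10.4%) are shared with Cct6a, a chaperonin subunit on the opposite strand. The sources used here do not give the strand of the libraries, and reads from these bases cannot be assigned to 1 gene. Cct6a was chosen for this overlap after its values were seen, and it averaged 132 ± 3.94 CPM in casein MR and 109 ± 7.23 CPM in casein control (SD, n = 6 each). In elemental MR it averaged 123 ± 9.56 CPM, and in elemental control 105 ± 3.38 CPM. Its log2 fold changes of 0.27 ± 0.05 with casein MR and 0.23 ± 0.05 with elemental MR were smaller than those of Psph (SE, edgeR adjusted p = 3.67e-04 and 0.00403). Cct6a was far more abundant than Psph in every group, so log2 fold changes do not show how many reads it could add to Psph. Its part in the Psph values was not tested. The exons of Phgdh and Psat1 overlap no other gene, and no pseudogene symbol of the 3 enzymes stands in the count table.

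The libraries with muscle or pancreas markers were left out in turn. Casein MR library C_MR_3438 had the lowest Phgdh and Psph levels of its group, at 1.05 and 11.3 CPM, and a Psat1 level of 33.1 CPM. Elemental control library E_C_3430 had 0.0535 CPM of Phgdh, 1.77 of Psat1 and 5.25 of Psph, all within the range of its group. Without C_MR_3438 the log2 fold changes on casein were 4.53 for Phgdh, 5.21 for Psat1 and 1.53 for Psph. Without elemental control library E_C_3430 those on elemental amino acids were 4.23 for Phgdh, 3.97 for Psat1 and 1.17 for Psph. The lower level of hepatocyte markers goes along with MR in both diets, and its part in the rise of the enzymes was not tested.

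**Figure D2:**
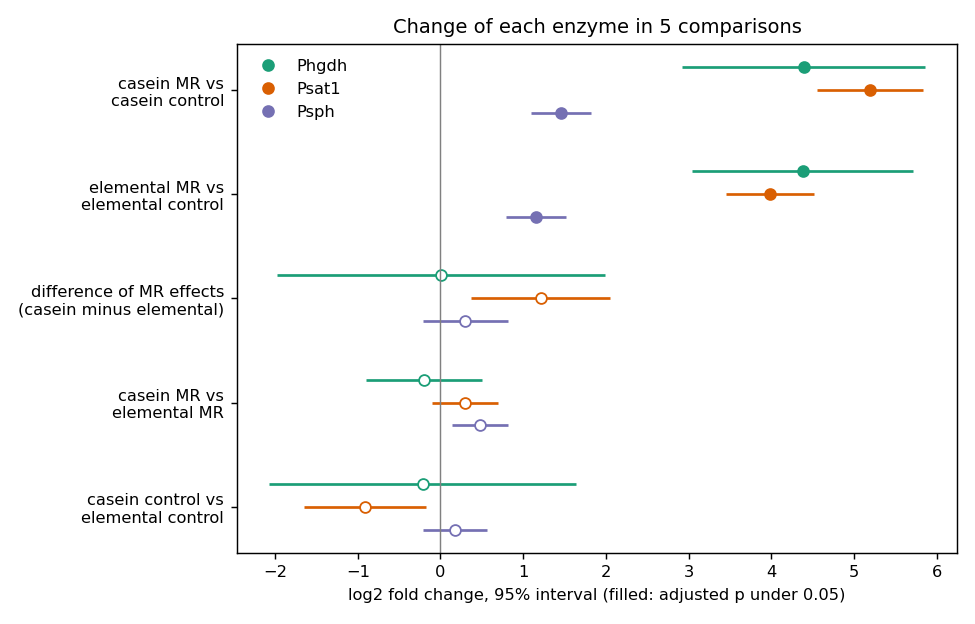
Log2 fold change of Phgdh, Psat1 and Psph in the 2 MR comparisons, in the difference between them (casein minus elemental) and in the 2 comparisons of protein source. Points are estimates and bars 95% intervals. Every interval of the MR comparisons lies above 0, and the intervals of Phgdh are the widest.

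Whether the protein source changed the response was tested as the difference between the MR effects, casein minus elemental. This test called 2.34% of all genes and none of the 3 enzymes. The difference was 0.01 ± 0.96 on the log2 scale for Phgdh (SE, 95% interval -1.97 to 1.99, edgeR adjusted p = 0.996), an interval too wide to show that the responses are alike. For Psat1 it was 1.21 ± 0.41 (95% interval 0.37 to 2.05, edgeR adjusted p = 0.132). The Psat1 call depended on the analysis, with an adjusted p of 0.0499 by DESeq2 and 0.0379 by edgeR without elemental MR library E_MR_3405, the library highest in Psat1 within its group. For Psph the difference was 0.30 ± 0.25 (95% interval -0.21 to 0.82, edgeR adjusted p = 0.705).

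Between the MR diets themselves, 6.5% of genes were called and none of the enzymes was. Psat1 averaged 35.7 ± 3.69 CPM in casein MR and 29.1 ± 10.2 CPM in elemental MR (SD, n = 6 each), a log2 fold change of 0.30 ± 0.19 (SE, edgeR adjusted p = 0.447). Psph averaged 15.3 ± 3.39 CPM in casein MR and 11.0 ± 2.94 CPM in elemental MR, a log2 fold change of 0.48 ± 0.17 (edgeR adjusted p = 0.0896). That value crossed the threshold by limma-voom, at an adjusted p of 0.0422, and by edgeR without elemental MR library E_MR_3416, at 0.0493. Phgdh averaged 2.02 ± 0.836 CPM in casein MR and 2.33 ± 1.13 CPM in elemental MR, a log2 fold change of -0.20 ± 0.34 (edgeR adjusted p = 0.819). The ranges of the MR groups overlapped for each enzyme.

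On the control diets, 0.104% of genes were called between casein and elemental amino acids, and neither Psat1 nor Psph was among them. Psat1 averaged 0.952 ± 0.565 CPM in casein control and 1.85 ± 0.353 CPM in elemental control, a log2 fold change of -0.91 ± 0.36 (edgeR adjusted p = 0.298). Phgdh averaged 0.0860 ± 0.0897 CPM in casein control and 0.111 ± 0.0907 CPM in elemental control, a log2 fold change of -0.21 ± 0.90 (edgeR adjusted p = 0.95). With 8 reads in casein control and 10 in elemental control, a difference in Phgdh was not detectable at this depth. Psph averaged 5.56 ± 1.21 CPM in casein control and 4.93 ± 0.744 CPM in elemental control, a log2 fold change of 0.17 ± 0.19 (edgeR adjusted p = 0.776). The Psat1 ranges of the control groups overlapped only between 1.5 and 1.62 CPM.

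Levels of different genes were set side by side per kilobase of exon, using 2486 bases for Phgdh, 4254 for Psat1 and 4329 for Psph. The order of the enzymes turned over with the diet. Psat1 was the most abundant of the 3 in 6 of 6 libraries of each MR group, and Psph in 6 of 6 libraries of each control group. In casein MR, Psat1 averaged 8.40 ± 0.867 CPM per kb, Psph 3.53 ± 0.783 and Phgdh 0.811 ± 0.336 (SD, n = 6). In casein control, Psph averaged 1.28 ± 0.280 CPM per kb, Psat1 0.224 ± 0.133 and Phgdh 0.0346 ± 0.0361. In elemental MR, Psat1 averaged 6.85 ± 2.41 CPM per kb, Psph 2.54 ± 0.679 and Phgdh 0.938 ± 0.455, and in elemental control Psph averaged 1.14 ± 0.172, Psat1 0.436 ± 0.0829 and Phgdh 0.0446 ± 0.0365. The ranges of neighbours in this order did not overlap except between Psat1 and Phgdh in casein control, where library C_C_3437 had 0 for both.

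The summed level of the 3 mRNAs was 12.7 ± 1.16 CPM per kb in casein MR and 1.54 ± 0.290 in casein control (SD, n = 6 each). It was 10.3 ± 3.40 CPM per kb in elemental MR and 1.62 ± 0.224 in elemental control. Psat1 made up most of the sum on MR and Psph most of it on the control diets. The share of Psat1 was 66.0% ± 5.08 in casein MR and 14.9% ± 9.20 in casein control. Its share was 66.1% ± 2.43 in elemental MR and 27.1% ± 4.45 in elemental control. Phgdh stayed the smallest share on average, at 6.30% ± 2.49 in casein MR, 2.06% ± 2.12 in casein control, 8.71% ± 2.27 in elemental MR and 2.64% ± 2.08 in elemental control. The ratio of Psat1 to Psph per kilobase ran from 1.48 to 2.98 in casein MR, against 0 to 0.345 in casein control. It ran from 2.17 to 3.41 in elemental MR, against 0.274 to 0.517 in elemental control. These shares count mRNA per length and say nothing of enzyme amount.

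**Figure D3:**
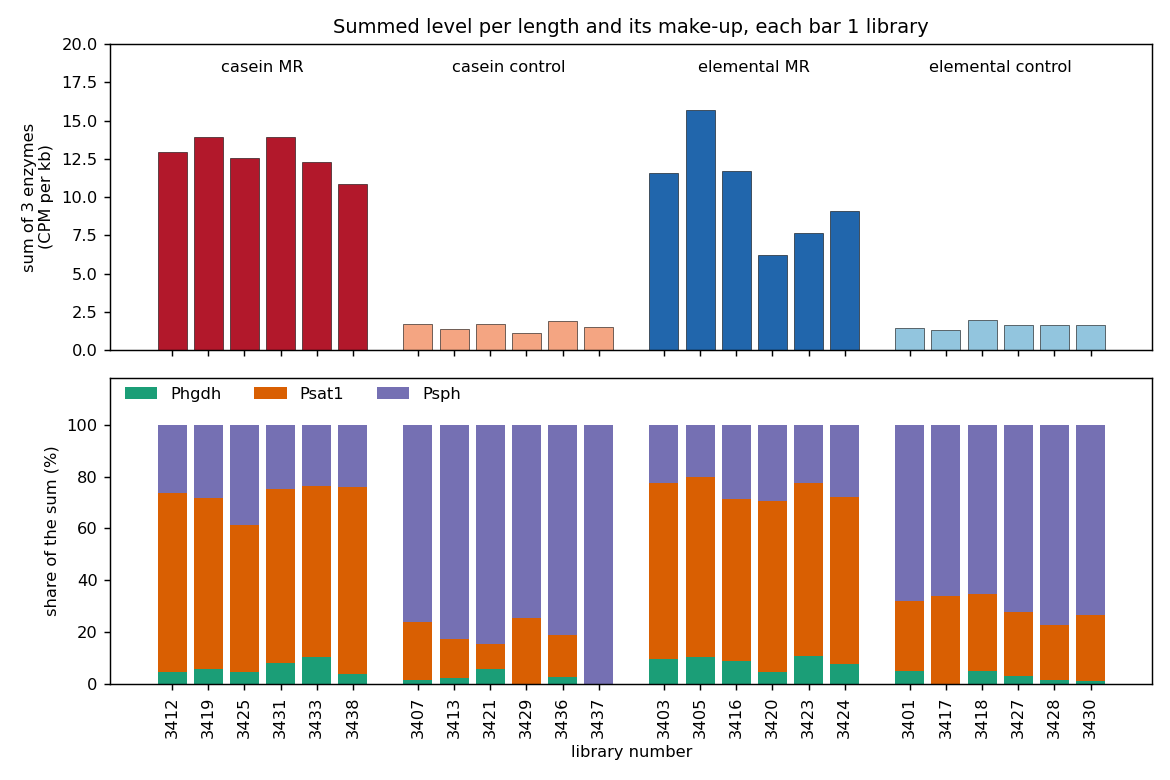
Summed level of the 3 enzymes in CPM per kb of exon (upper bars) and the share of each enzyme in that sum in percent (lower stacked bars), with 1 bar per library. Psat1 is the largest share in all 12 MR libraries and Psph in all 12 control libraries, and elemental MR library E_MR_3420 has the lowest sum on MR.

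How the enzymes varied among libraries of 1 group was described by 12 correlations, of which none passed after adjustment. Within elemental MR, library E_MR_3405 was the highest in Phgdh and Psat1, at 4.11 and 46.2 CPM. Library E_MR_3420 was the lowest in the same genes, at 0.733 and 17.4 CPM. Across these 6 libraries Phgdh and Psat1 had a Pearson r of 0.93 (exact permutation p = 0.00972, adjusted p = 0.117 over 12 correlations) and a Spearman rho of 0.94 (exact permutation p = 0.0167, adjusted p = 0.2). Without libraries E_MR_3405 and E_MR_3420, r was 0.81. Psat1 and Psph had an r of 0.83 (exact permutation p = 0.0486, adjusted p = 0.292) and a rho of 0.77 (exact permutation p = 0.103, adjusted p = 0.617), with an r of 0.79 without the same libraries. Phgdh and Psph had an r of 0.69 (exact permutation p = 0.122, adjusted p = 0.489), which was 0.42 without the same libraries. In casein MR the r was 0.47 for Phgdh and Psat1 (exact permutation p = 0.328, adjusted p = 0.663) and -0.16 for Psat1 and Psph (exact permutation p = 0.767, adjusted p = 0.909). Without the 2 libraries farthest from the median, these were 0.67 and 0.98, so the sign of the casein value for Psat1 and Psph rests on the libraries left out. Of the 12 correlations, 10 had a positive r, among them 0.0031 for Phgdh and Psph in casein MR. Several of these turned negative without the 2 libraries farthest from the median. For Phgdh and Psph r became -0.89 in elemental control, -0.50 in casein MR and -0.08 in casein control. For Psat1 and Psph it became -0.45 in elemental control. The other positive values stayed positive. The genes share a library and its scaling in each point.

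The genes whose log2 CPM followed each enzyme most closely over the 24 libraries were found by the root mean square of the difference between centred profiles, where smaller is closer. This likeness is a description over libraries that also differ by diet. For Phgdh the 5 nearest were Gadd45b (0.607), a stress-induced regulator of growth arrest, Pycr1 (0.692), the last enzyme of proline synthesis, Aldh1l2 (0.716), a mitochondrial folate dehydrogenase, Vldlr (0.716), a lipoprotein receptor, and Epb41l1 (0.728), a protein of the membrane skeleton. The median distance from Phgdh over all genes ranked was 1.81. For Psat1 they were Asns (0.753), asparagine synthetase, Aldh1l2 (0.850), the glutathione transferase Gsta1 (0.988), the transcription factor Tcf24 (1.08) and Vldlr (1.13), against a median of 2.47. Aldh1l2 and Vldlr stood near both enzymes over the libraries, but over the 4 group means Vldlr was among the 5 nearest of neither, and Aldh1l2 and Gsta2 were among those of both.

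Psph had none of these neighbours. The distance also counts the size of a change, and genes that changed far more could hardly stand near Psph, which changed less. Its 5 nearest were Ugdh (0.277), which makes UDP-glucuronate, the glutathione transferases Gstm1 (0.292) and Gstm4 (0.294), Blvrb (0.306), a biliverdin reductase, and Pir (0.335), an iron-binding nuclear protein, against a median of 0.767. With distances over the 4 group means, 2 of 5 nearest genes were the same for Phgdh, 3 of 5 for Psat1 and 1 of 5 for Psph. Gsta1, Gstm1 and Gstm4 belong to families of near-identical genes, so reads may be split between copies and their values are uncertain.

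**Figure D4:**
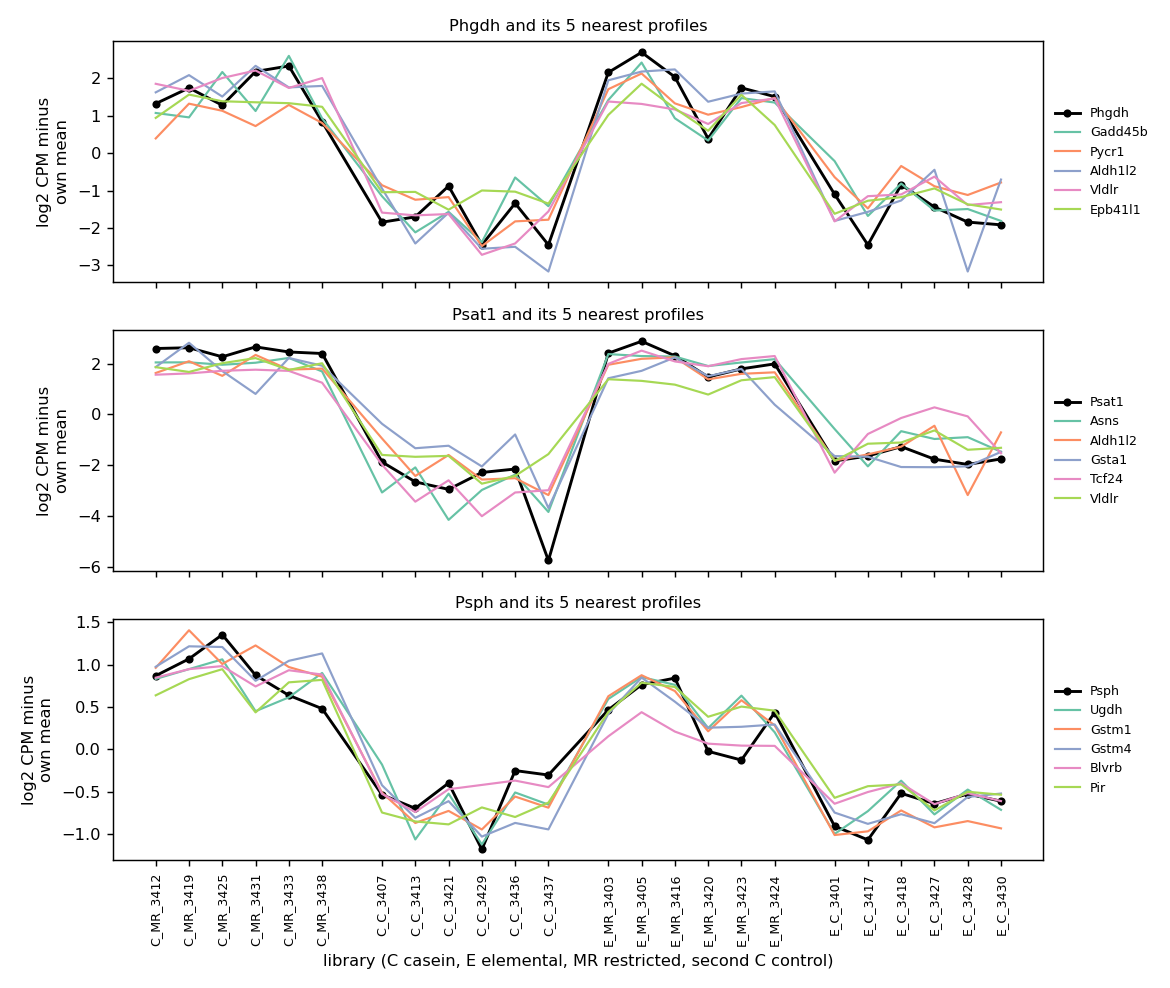
Log2 CPM centred on each gene's mean over the 24 libraries, for each enzyme (thick line) and its 5 nearest genes (thin lines), with libraries ordered by diet group. Phgdh and Psat1 run with Aldh1l2 and Vldlr, and Psph runs with Ugdh, Gstm1, Gstm4, Blvrb and Pir at a smaller amplitude.

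These neighbours were picked for profiles close to enzymes that differ between MR and control, so their own MR values are a description and carry no test. Asns had log2 fold changes of 5.01 ± 0.25 with casein MR and 3.23 ± 0.20 with elemental MR (SE). The difference between these effects was 1.78 ± 0.32. Asns averaged 62.3 ± 7.27 CPM in casein MR, 1.97 ± 1.09 in casein control, 70.6 ± 8.38 in elemental MR and 7.57 ± 2.55 in elemental control. Between the control diets its log2 fold change was -1.96 ± 0.26, casein over elemental. For Tcf24 the same value was -2.58 ± 0.43, and the difference between its MR effects was 2.02 ± 0.49, which edgeR called and limma-voom did not (adjusted p = 0.107). Psat1 was not called in either comparison. Ugdh had log2 fold changes of 1.46 ± 0.14 with casein MR and 1.23 ± 0.14 with elemental MR.

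Genes around the pathway were read from 8 lists, some of which share members, and called genes are counted at the background shares given above. The lists were chosen with earlier results of these data known, so their counts are a description. Falls were called for 12.7% of genes with casein MR and 6.64% with elemental MR. The median log2 fold change over all 13441 genes was 0.01 with casein MR and -0.0028 with elemental MR.

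Among 36 known ATF4 targets other than the 3 enzymes, 20 rose and none fell with casein MR, with a median log2 fold change of 0.68. With elemental MR, 23 rose and none fell, with a median of 0.73. Aldh1l2 and Pycr1 in this list passed the filter on low counts only through the MR groups, so that they had to differ to be tested. Gars, the glycyl-tRNA synthetase, rose by 0.82 ± 0.07 with casein MR and 0.94 ± 0.07 with elemental MR (SE, edgeR adjusted p = 1.32e-09 and 3.73e-10). Slc3a2, the heavy chain of amino acid exchangers, rose by 1.04 ± 0.12 with casein MR and 1.14 ± 0.12 with elemental MR (edgeR adjusted p = 2.48e-07 and 2.54e-07). Atf4 mRNA itself was not called, at 169 ± 20.9 CPM in casein MR against 152 ± 13.5 CPM in casein control (SD, n = 6 each, log2 fold change 0.16 ± 0.09, edgeR adjusted p = 0.253). In elemental MR it was 186 ± 27.5 CPM, against 163 ± 17.2 CPM in elemental control (log2 fold change 0.19 ± 0.09, edgeR adjusted p = 0.194). ATF4 is known to be controlled at translation, which mRNA does not show. Of 16 transcription regulators of the response, 4 rose and none fell in each comparison. Among these, Atf5, Trib3, Nupr1 and Cebpg are also in the list of ATF4 targets, so their rises are counted in both. Atf5 rose by 0.98 ± 0.11 with casein MR and 0.91 ± 0.11 with elemental MR (edgeR adjusted p = 2.26e-07 and 2.99e-06), and Trib3, a pseudokinase that restrains ATF4, by 0.81 ± 0.23 with casein MR and 1.0 ± 0.23 with elemental MR (0.00957 and 0.00351). Nupr1, a stress-induced nuclear protein, rose by 1.61 ± 0.30 with casein MR and 1.33 ± 0.27 with elemental MR (edgeR adjusted p = 1.72e-04 and 0.00143). Ppp1r15a, a phosphatase subunit that restores translation, rose by 0.59 ± 0.13 with casein MR (edgeR adjusted p = 0.00138) and was at 0.29 ± 0.13 with elemental MR (0.157). Cebpg, a partner of ATF4, was at 0.20 ± 0.12 with casein MR (edgeR adjusted p = 0.24) and rose by 0.37 ± 0.12 with elemental MR (0.0368).

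Upstream of Phgdh, the glycolysis genes that lead to and from 3-phosphoglycerate were called in both directions. Of 23 tested, 4 rose and 7 fell with casein MR (median log2 fold change 0.02), and 2 rose and 3 fell with elemental MR (median -0.06). Pgk1 and Pgam1, the enzymes that make and consume 3-phosphoglycerate, were not called, with values of 0.03 ± 0.22 and -0.10 ± 0.21 with casein MR (SE, edgeR adjusted p = 0.955 and 0.8). With elemental MR their values were -0.09 ± 0.22 and -0.12 ± 0.21 (edgeR adjusted p = 0.846 and 0.782). Pgk1 averaged 3.30 CPM in casein MR, 3.23 in casein control, 3.30 in elemental MR and 3.52 in elemental control. Pgam1 averaged 3.83 CPM in casein MR, 4.12 in casein control, 3.54 in elemental MR and 3.84 in elemental control. Both levels as counted are low, so small changes may be missed. How reads that match more than 1 place were counted is not given in the sources used here. Counted levels of these and other glycolysis genes, Gapdh among them, may therefore differ from the true ones. Pklr, the liver pyruvate kinase at the end of glycolysis, fell in both, with -1.57 ± 0.14 on casein and -1.06 ± 0.14 on elemental amino acids (edgeR adjusted p = 6.70e-09 and 1.08e-05). Gapdh, which feeds the branch to 3-phosphoglycerate, fell by 0.46 with casein MR and by 0.28 with elemental MR (edgeR adjusted p = 5.16e-05 and 0.0168). Pfkp, a phosphofructokinase, rose by 1.04 ± 0.20 with casein MR and 1.22 ± 0.19 with elemental MR (edgeR adjusted p = 3.23e-04 and 7.77e-05). Aldoa, an aldolase, rose by 0.66 ± 0.12 with casein MR and 0.77 ± 0.12 with elemental MR (edgeR adjusted p = 1.46e-04 and 6.30e-05). Of the 4 rises with casein MR, 2 were lost without library C_MR_3438, which held the muscle markers. They were Pfkm and Eno3, muscle forms of glycolytic enzymes named here after their values were seen, at 0.25 ± 0.14 and 0.24 ± 0.16 without it (edgeR adjusted p = 0.248 and 0.329).

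Glutamate, the amino donor of Psat1, is made and used by 18 genes tested. With casein MR 1 rose and 5 fell (median -0.11), and with elemental MR 2 rose and 1 fell (median 0.02). Idh2, which makes the keto acid of glutamate in mitochondria, rose by 0.88 ± 0.09 with casein MR and 0.47 ± 0.09 with elemental MR (SE, edgeR adjusted p = 3.52e-08 and 6.04e-04). Glul, glutamine synthetase, fell by 0.65 with casein MR and by 0.31 with elemental MR (edgeR adjusted p = 2.44e-07 and 0.00563). Oat, which links ornithine to glutamate, fell by 1.45 with casein MR (edgeR adjusted p = 6.86e-08) and was at -0.28 ± 0.15 with elemental MR (0.246). Gls2, the liver glutaminase, fell by 0.61 with casein MR (edgeR adjusted p = 0.00124) and was at 0.17 ± 0.14 with elemental MR (0.463). Ogdh, which uses the keto acid, was at 0.15 ± 0.06 with casein MR (edgeR adjusted p = 0.0889) and rose by 0.18 ± 0.06 with elemental MR (0.0478), a call lost with upper quartile scaling (0.0563) and in a fit of the groups compared alone (0.0501). Idh1, the cytosolic counterpart of Idh2, was called in neither, at 0.03 ± 0.07 with casein MR and -0.15 ± 0.07 with elemental MR (edgeR adjusted p = 0.834 and 0.16).

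Downstream of serine, the genes that use serine and glycine were called in both directions. Of 26 tested, 1 rose and 10 fell with casein MR (median -0.16), and 4 rose and 3 fell with elemental MR (median -0.03). Shmt1, the cytosolic enzyme that turns serine into glycine and a one-carbon unit, fell by 0.59 with casein MR and by 0.40 with elemental MR (edgeR adjusted p = 7.54e-07 and 3.90e-04). Shmt2, its mitochondrial counterpart, was not called with casein MR, at -0.01 ± 0.05 (edgeR adjusted p = 0.957), and rose by 0.26 ± 0.05 with elemental MR (0.00175). The sign of the casein value turned with the filter on low counts and with limma-voom. Dmgdh, which demethylates dimethylglycine, and Gamt, which makes creatine from a glycine derivative, both fell, by 1.14 and 1.0 with casein MR (edgeR adjusted p = 2.63e-11 and 8.21e-10) and by 0.31 and 0.43 with elemental MR (0.00669 and 5.68e-04). Cbs, which joins serine to homocysteine on the way to cysteine, was not called, at 0.14 ± 0.10 with casein MR and 0.15 ± 0.10 with elemental MR (edgeR adjusted p = 0.357 and 0.378). Sds, which degrades serine to pyruvate, was at -0.47 ± 0.17 with casein MR (edgeR adjusted p = 0.0551), and DESeq2, limma-voom and a fit of the groups compared alone called it lower. Agxt2, an aminotransferase of glyoxylate, fell by 0.81 with casein MR (edgeR adjusted p = 3.34e-08) and was at -0.20 ± 0.08 with elemental MR (0.118). Gldc, of the glycine cleavage system, was not called, at -0.26 ± 0.15 with casein MR and 0.02 ± 0.15 with elemental MR (edgeR adjusted p = 0.232 and 0.952).

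Folate one-carbon genes, which take up the carbon of serine, were called in both directions. Of 24 tested, 5 rose and 3 fell with casein MR (median 0.09), and 7 rose and 2 fell with elemental MR (median 0.03). The mitochondrial Aldh1l2 rose by 4.55 ± 0.54 with casein MR and 3.48 ± 0.41 with elemental MR (SE, edgeR adjusted p = 6.00e-09 and 2.54e-07). Its level averaged 0.147 CPM in casein control and 0.325 CPM in elemental control. Like Phgdh it passed the filter on low counts only through the MR groups, so that it had to differ to be tested. Mthfd2, which oxidises the one-carbon unit in mitochondria, rose by 2.32 ± 0.30 with casein MR and 2.49 ± 0.29 with elemental MR (edgeR adjusted p = 1.04e-06 and 1.13e-06), and Mthfd1l, which releases it as formate, by 2.0 ± 0.34 with casein MR and 1.82 ± 0.35 with elemental MR (4.68e-05 and 4.91e-04). The cytosolic Aldh1l1 and Ftcd fell by 0.89 and 0.90 with casein MR (edgeR adjusted p = 8.52e-08 and 8.41e-07). With elemental MR Ftcd was at -0.34 ± 0.11 (edgeR adjusted p = 0.0451, and 0.0569 without the filter on low counts), and Aldh1l1 was at -0.24 ± 0.10 (0.0985).

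Among genes that carry serine into lipids, the difference between the MR effects was called for 1, Serinc2. Of 13 tested, 5 rose and 1 fell with casein MR (median 0.04), and none was called with elemental MR (median 0.13, 5 at an unadjusted p under 0.05 and 1 by DESeq2). Serinc2, of the serine incorporator family, averaged 52.7 ± 8.38 CPM in casein MR, 16.1 ± 3.32 in casein control, 23.4 ± 4.02 in elemental MR and 19.9 ± 2.97 in elemental control (SD, n = 6 each). Its log2 fold change was 1.70 ± 0.13 with casein MR and 0.24 ± 0.13 with elemental MR (SE, edgeR adjusted p = 2.35e-10 and 0.261), and the difference was 1.47 ± 0.18 (5.14e-05). With casein MR, Cers2, a ceramide synthase, fell by 0.45 (edgeR adjusted p = 7.37e-06), while the ceramide synthase Cers6 rose by 0.69 ± 0.16 (0.00196) and Pisd, which turns phosphatidylserine into phosphatidylethanolamine, by 0.48 ± 0.10 (9.74e-04). With elemental MR their values were -0.14 ± 0.06 for Cers2, 0.47 ± 0.16 for Cers6 and 0.13 ± 0.10 for Pisd (edgeR adjusted p = 0.181, 0.0538 and 0.479). Cers6 was called there by DESeq2 (0.0329) and limma-voom (0.0181). Serinc1, Serinc5 and Sptlc2, a subunit of serine palmitoyltransferase, were called in neither comparison, with values from -0.25 to 0.25. Of 13 serine and glycine transporters tested, 2 rose and 4 fell with casein MR (median 0.15), and 3 rose and 1 fell with elemental MR (median 0.05). Slc6a9, a glycine transporter, rose by 0.73 ± 0.11 with casein MR and 0.50 ± 0.11 with elemental MR (edgeR adjusted p = 1.46e-05 and 0.0028). Slc38a4, a transporter of neutral amino acids, fell by 0.44 with casein MR and by 0.21 with elemental MR (edgeR adjusted p = 2.10e-05 and 0.0408). Its relatives parted, since Slc38a2 rose by 0.27 ± 0.10 with casein MR and 0.33 ± 0.10 with elemental MR (edgeR adjusted p = 0.0466 and 0.0254), and Slc38a3 fell by 0.72 with casein MR (2.90e-07) and was at -0.20 ± 0.08 with elemental MR (0.123). The casein call of Slc38a2 was lost by limma-voom (adjusted p = 0.0609) and in a fit of the groups compared alone (0.0514). Slc36a1, which exports small amino acids from lysosomes, fell by 0.41 with casein MR (edgeR adjusted p = 0.00254) and was at -0.21 ± 0.10 with elemental MR (0.177). Sfxn2, of the mitochondrial sideroflexin family, was at 0.15 ± 0.08 with casein MR (edgeR adjusted p = 0.183) and rose by 0.26 ± 0.08 with elemental MR (0.0288). Slc1a4, which carries serine and alanine, was at 0.06 ± 0.25 with casein MR and -0.06 ± 0.24 with elemental MR (edgeR adjusted p = 0.91 and 0.912).

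**Figure D5:**
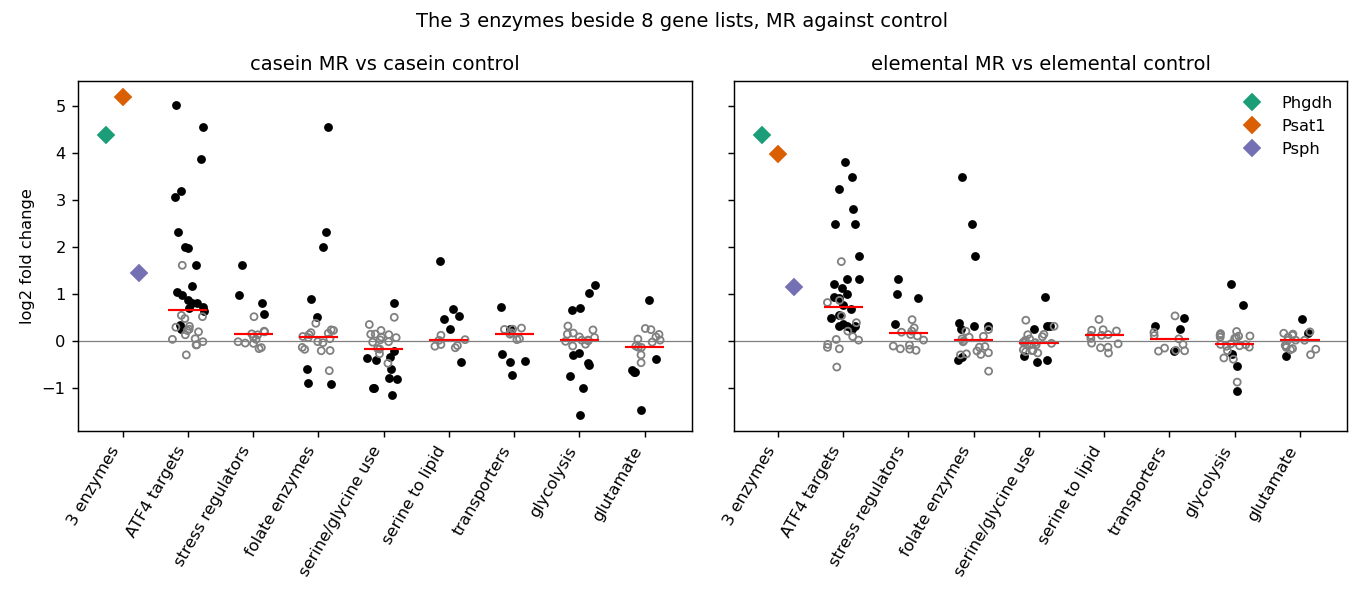
Log2 fold change of each member of the 8 gene lists with casein MR (left) and elemental MR (right), with filled points for called genes, a red line at each list's median and diamonds for the 3 enzymes. The ATF4 targets have medians of 0.68 and 0.73, and those of the other lists run from -0.16 to 0.17.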

How the data were processed

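RNA of 24 liver samples was sequenced. The authors deposited raw read counts of 15161 Ensembl genes, each with at least 72 reads over all libraries. The deposited normalized table holds a signal, found to equal the counts divided by 1 size factor per library (0.745 to 1.32), and it was not tested. Aligner, counting tool, genome build and strand: not given in the sources used here. Symbols came from the deposited table (13002 genes) or the reference (2119), and 40 genes had none. No 2 libraries of a group were identical among 60 pairs.

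Counts were analysed with edgeR 4.0.16 in R 4.3.3. filterByExpr kept 13441 genes and 99.93% of reads, TMM scaled the libraries, and 1 quasi-likelihood model of all 24 had a term for each group. Within each of 5 comparisons p-values received the Benjamini-Hochberg adjustment, and a gene was called below an adjusted p of 0.05. SEs and 95% intervals of log2 fold changes are Wald values from that fit. CPM use TMM-scaled library sizes. Log2 CPM add a prior count of 2. Exon lengths are GENCODE M21 union exons. Correlations were tested by exact two-sided permutation of 6 libraries (720 pairings), which cannot give a p under 0.00139. The code was tested on simulated counts.

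The text names the 3 enzymes, their 5 nearest genes, the fixed pathway genes and, for each list and MR comparison, the 4 members with the smallest p. Members and lists were chosen with earlier results of these data known. DESeq2 1.42.0, limma-voom (limma 3.58.1), other scalings, filters, thresholds and leaving out each library were tried as alternatives.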

Additional observations from a re-analysis of the deposited data

Results flagged for a closer look

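The effect of MR differed between casein and elemental amino acids for 13 of 59 genes taken by the naming rule, by edgeR's test of the difference at an adjusted p under 0.05, which called 2.34% of all genes. These genes were chosen partly by a small p or by their profile, so the count says nothing particular about them. The Tcf24 call was lost by limma-voom (adjusted p = 0.107). The log2 fold change was larger with casein MR than with elemental MR for Asns (difference 1.78), Tcf24 (2.02), Vldlr (1.39), Serinc2 (1.47), Blvrb (0.67) and Gstm4 (0.66). It was lower with casein MR than with elemental MR for Oat, which links ornithine to glutamate (difference -1.16), Dmgdh (-0.82), the liver glutaminase Gls2 (-0.79), Aldh1l1 (-0.65), Agxt2, an aminotransferase of glyoxylate (-0.61), Gamt (-0.56) and the transporter Slc38a3 (-0.52). None of the 3 enzymes is among them.

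Libraries stood apart from the others of their group in 10 of 40 sums of cell type markers and in 0 of 12 groups of enzyme levels, and chance flags about 1 in 20 groups. Casein MR library C_MR_3438 had 2135 CPM of skeletal muscle markers and 4.51 CPM of adipocyte markers. Elemental control library E_C_3430 had 1737 CPM of pancreas acinar markers and 5.08 CPM of adipocyte markers. Casein MR library C_MR_3431 had 798 CPM of Kupffer cell and macrophage markers and 621 CPM of stellate cell and fibroblast markers. Casein control library C_C_3407 had 93.5 CPM of cholangiocyte markers. Elemental MR library E_MR_3423 had 20.5 CPM of adipocyte markers. Casein MR library C_MR_3412 had 8.12 CPM and casein control library C_C_3429 had 3.43 CPM of pancreas acinar markers.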

How the results depend on the processing

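The 6 MR effects of the enzymes kept their direction and their call in 7 of 7 alternatives and in 24 of 24 fits that left out a library. Over those fits the casein values ran from 4.14 to 5.01 for Phgdh, 4.96 to 5.42 for Psat1 and 1.35 to 1.53 for Psph, and the elemental values from 4.12 to 4.68 for Phgdh, 3.80 to 4.09 for Psat1 and 1.06 to 1.25 for Psph. The difference for Psat1 was called by DESeq2 (1.23) and ran from 0.98 to 1.44 with a library left out. Psph between the MR diets was called by limma-voom (0.50) and ran from 0.37 to 0.57. Phgdh changed sign in 11 of 24 such fits for the difference (-0.28 to 0.63), in 4 between the control diets (-0.83 to 0.0882) and in 1 between the MR diets (-0.39 to 0.0323). In the comparison of control diets Phgdh had no value by DESeq2 or in the fit of the groups compared alone. The causes were not tested.

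Counts of called genes moved at an adjusted p under 0.01, to 974 for elemental MR, 153 for the difference, 450 between the MR diets and 3 between the control diets. The last comparison called 14 genes, 89 by DESeq2, 3 by limma-voom, 7 with the groups compared alone and 5 to 33 with a library left out. Leaving out a library gave 2851 to 3174 for casein MR, 1400 to 1903 for elemental MR, 227 to 404 for the difference and 664 to 952 between the MR diets. Of 256 list counts, 19 moved, each by 1 or 2 genes. Without casein MR library C_MR_3438, chosen after seeing the data, glycolysis genes called higher with casein MR numbered 2, against 4 with it. Of 904 values of named genes, 889 kept direction and call. Shmt2 with casein MR turned sign, to 5.22e-04 without a filter, 0.00199 with a strict filter and 0.00418 by limma-voom. Distances over 4 group means shared 2, 3 and 1 of the nearest genes of Phgdh, Psat1 and Psph. No paired analysis was possible because the libraries carry no shared numbers. Few reads in the controls limit the precision of Phgdh, which passed the filter on low counts only through the MR groups.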
